A study of Homo sapiens with 4 samples.

Results

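The Notch receptors, ligands, nuclear partners and targets described here are 10 genes of the 15575 in a gene count table from U251 cells, an established human glioblastoma (GBM) cell line. They were taken by gene symbol, and all 10 (NOTCH1, NOTCH2, NOTCH3, JAG1, JAG2, RBPJ, MAML1, HES1, HEY1 and NRARP) were found, each on 1 row. The RNA-seq experiment asked which genes change when PRMT3, a type I protein arginine methyltransferase, is depleted. It comprised 2 Ctrl libraries from U251 cells given a control shRNA and 2 PRMT3-KD libraries from U251 cells given an shRNA against PRMT3, both by lentivirus and both after 72 h. The Ctrl titles carry the vector name pGreen, every library comes from virus-treated cells of the same line, and the hairpin used for the PRMT3-KD libraries is not given in the sources used here. The labels do not say whether the libraries of a group came from separate cultures, so the p-values measure the spread between these libraries, which may be technical.

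Notch signalling passes a signal between neighbouring cells. A ligand of the Jagged or Delta-like family on the surface of a cell binds a NOTCH receptor on its neighbour, the receptor is cut by an ADAM protease and then by gamma-secretase, and the freed intracellular domain enters the nucleus. There it joins the DNA-binding protein RBPJ and a Mastermind coactivator such as MAML1, and genes of the HES and HEY families are switched on. In the nervous system the pathway is known for keeping neural progenitors undifferentiated and for favouring glial over neuronal fates.

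HES1 is the classical target of RBPJ, and the DNA just before its start site is shown because HES1 is one of the 2 members that changed. The 250 bases run 5′ to 3′ at chr3:194135898-194136147 on the + strand of GRCh38.p14, as RefSeq gives them, and capitals mark TGGGAA, the core bases that RBPJ recognises.
HES1: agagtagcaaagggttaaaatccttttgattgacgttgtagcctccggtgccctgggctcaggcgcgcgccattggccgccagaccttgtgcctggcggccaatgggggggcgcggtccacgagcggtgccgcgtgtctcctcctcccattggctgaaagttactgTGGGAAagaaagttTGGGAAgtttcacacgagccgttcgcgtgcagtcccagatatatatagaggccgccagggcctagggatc

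The HES1 window held 2 copies of TGGGAA, on the gene's own strand, starting 84 and 70 bases before the start site. Searched on both strands, TGGGAA was in 21.1% of 27305 RefSeq promoter windows of the same length, and among the 9 members with such a window it was in HES1 alone. CACNAG, the N box through which HES1 is known to repress its own promoter, was found 3 times in the HES1 window. It was also in the windows of NOTCH3, RBPJ and MAML1, with 1 copy each. At least 1 copy was in 32% of all windows. These matches are letters in a window and were not tied to the counts.

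The libraries held between 24804250 and 29756313 counts. The 2 Ctrl libraries differed by little more than counting error (chi-square over degrees of freedom of 1.41 for 13156 genes, near the value for counting error alone). The 2 PRMT3-KD libraries were far apart (70.7 for 13148 genes), so the precision of most changes was limited by the PRMT3-KD libraries. PRMT3 itself had 535 and 535 counts in Ctrl against 77 and 45 in PRMT3-KD cells, a log2 fold change of -3.08 (SE 0.314, Benjamini-Hochberg adjusted p = 0.0177 in the quasi-likelihood test of edgeR, which is meant by edgeR from here on). The test shares its estimate of the spread between both groups. Levels are given as CPM, counts scaled to the library total with edgeR's TMM factors, and a gene passed the threshold when its adjusted p was under 0.05 and it had changed more than 1.5-fold. Of the 13172 genes tested, 1441 passed (10.9%), 4.97% as higher and 5.97% as lower in the PRMT3-KD group. With 2 libraries a group the smallest two-sided p of an exact permutation test is 0.333, so the model over all genes supplied the p-values.

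Of the 10 members, 2 passed the threshold: the ligand JAG1 and the target HES1, both lower in PRMT3-KD cells. This is 20% of the members beside 10.9% of all genes, on a count of 2. The receptors NOTCH1 and NOTCH2 and the nuclear proteins RBPJ and MAML1 had log2 fold changes between -0.12 and 0.03 and did not pass. JAG2, NOTCH3, HEY1 and NRARP had positive log2 fold changes and did not pass either. The median log2 fold change of the members was 0.02, and that of all genes tested was 0.01. The 2 groups of CPM did not overlap in 6 of the 10 members, beside 67.1% of all genes tested.

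**Figure D1:**
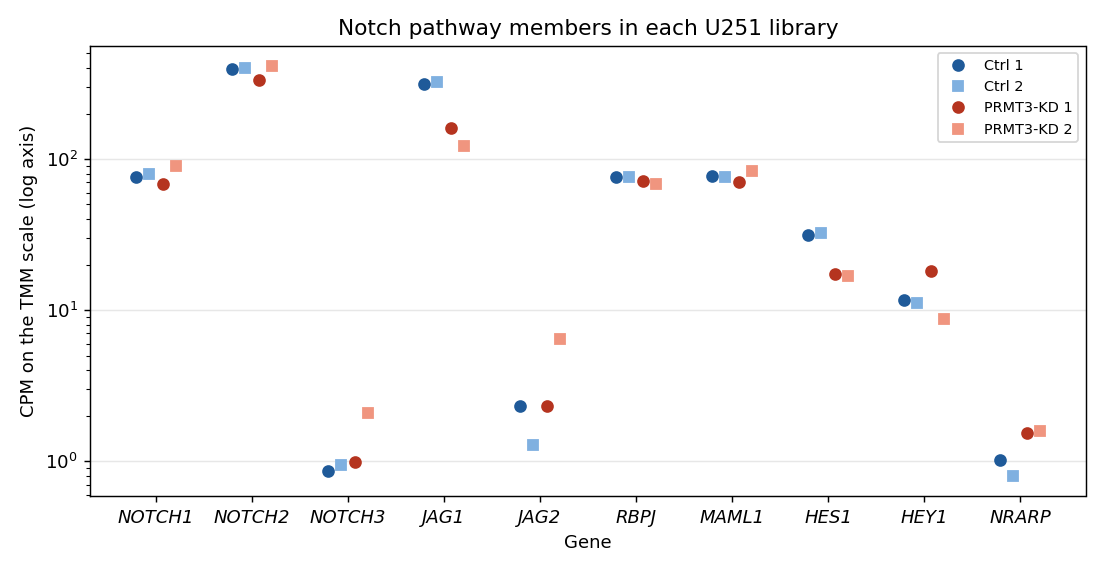
CPM on the TMM scale (log axis) of each member in the 4 U251 libraries, with blue symbols for Ctrl and red symbols for PRMT3-KD. JAG1 and HES1 were lower in both PRMT3-KD libraries, while HEY1, at 18.2 and 8.73 CPM, lay on opposite sides of the Ctrl libraries.

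JAG1 (ENSG00000101384, chromosome 20 of GRCh37 from 10618332 to 10654647, - strand) encodes Jagged 1, a membrane-bound Notch ligand. It had 313 and 323 CPM in the Ctrl libraries and 160.3 and 121 CPM in the PRMT3-KD libraries. Both PRMT3-KD values were far below both Ctrl values. Mean JAG1 was 318 ± 7.07 CPM in Ctrl against 141 ± 27.9 CPM after knockdown (SD, n = 2 libraries), which is a log2 fold change of -1.18 (SE 0.153, 95% interval -1.59 to -0.77, adjusted p = 0.0211, edgeR). The level that was left was 0.442 of the Ctrl level, and 2.07% of all genes tested had a lower log2 fold change. Against the Ctrl mean, on a log2(CPM + 0.5) scale, PRMT3-KD library 1 was at -0.99 and library 2 at -1.39. The call rested on having 2 Ctrl libraries: with Ctrl replicate 1 or 2 left out the change was -1.20 or -1.16 with an adjusted p of 0.123 or 0.113 (edgeR), and in those fits 0 of all genes passed (1842 and 1868 at an unadjusted p under 0.05, edgeR; other tools were not run on 3 libraries). With PRMT3-KD replicate 1 or 2 left out JAG1 was at -1.39 or -0.99. The spread in those fits came from the close Ctrl libraries alone, so passing there says little. The exons of JAG1 overlap ENSG00000270792 on the other strand, and how strand was treated in counting is not given in the sources used here.

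JAG1 was also the only member with the 7 bases CAGCTCA in its 3′ UTR, a sequence taken from an earlier re-analysis of these counts, in which genes that carry it had lower log2 fold changes. It was thus picked on these libraries, and its presence in JAG1 is no independent evidence. The copy lies at chr20:10619705-10619711 of GRCh37, on the - strand, 438 bases into a 3′ UTR of 1817 bases, and is shown in capitals with 10 bases on each side.
JAG1: agtgcctttgCAGCTCAgaaccacagc

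Among 12633 tested genes with an annotated 3′ UTR, 17.5% held CAGCTCA. Whether the sequence has a part in the fall of JAG1 was not tested. HES1, which fell too, has 0 copies in a 3′ UTR of 502 bases.

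JAG2 (ENSG00000184916, chromosome 14 from 105607319 to 105635161), the other Jagged ligand, was scarce. It had 64 and 35 counts in Ctrl against 59 and 183 in PRMT3-KD cells, or 2.31, 1.27, 2.32 and 6.44 CPM. Part of its exons is shared with ENSG00000257622 on the same strand. PRMT3-KD library 1 was at the level of the higher Ctrl library, and library 2 was 2.77 times library 1. The 95% exact Poisson intervals, which cover counting error only, ran from 1.77 to 2.99 CPM in PRMT3-KD library 1 and from 5.54 to 7.44 CPM in library 2. The log2 fold change of JAG2 was 1.29 (SE 0.602, 95% interval -0.31 to 2.90, adjusted p = 0.198, edgeR), and 98.6% of all genes tested had a smaller gap between the PRMT3-KD libraries. Without PRMT3-KD library 1 the log2 fold change was 1.84, and without library 2 it was 0.37.

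Per kilobase of annotated exons, JAG1 was the most abundant of the 5 canonical ligands (JAG1, JAG2, DLL1, DLL3 and DLL4) in every library, with 87.2% and 88% of their summed level in Ctrl and 89.4% and 83.8% in PRMT3-KD libraries. DLL1, the Delta-like ligand next in abundance, had 4.07 and 4.05 CPM per kb in Ctrl and 1.39 and 1.08 in PRMT3-KD libraries. The summed level of the 5 ligands was 38.6 and 39.5 CPM per kb in Ctrl and 19.3 and 15.5 in PRMT3-KD libraries. The share of JAG2 in that sum was 0.936% and 0.504% in Ctrl and 1.88% and 6.49% in PRMT3-KD libraries.

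**Figure D2:**
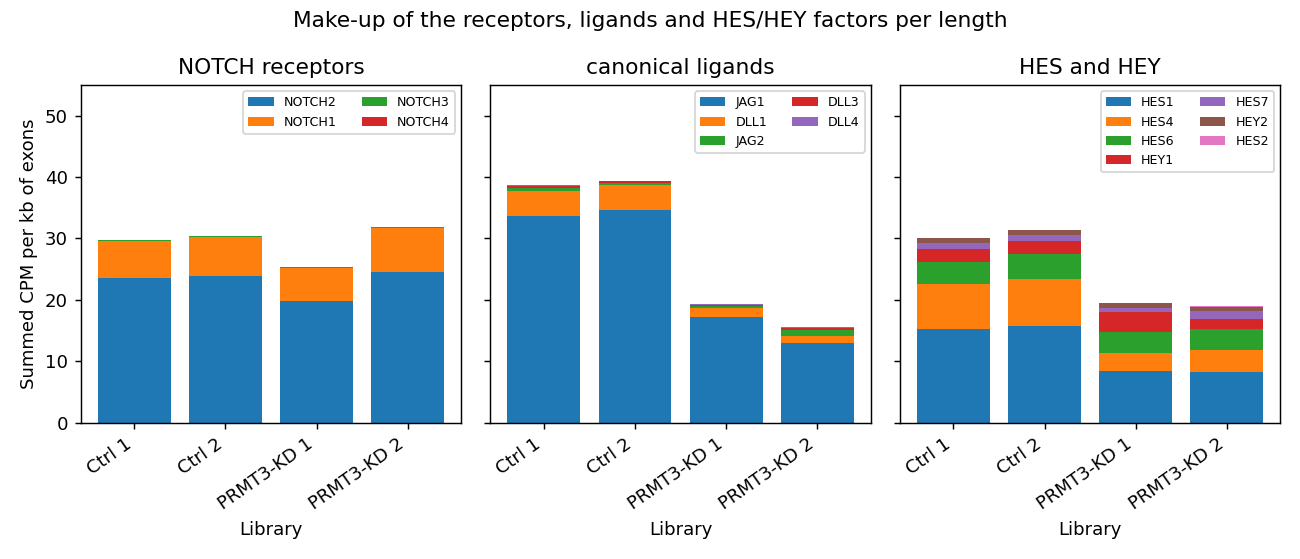
Stacked level per length (CPM per kb of annotated exons, axis from 0) of the NOTCH receptors, the canonical ligands and the HES and HEY factors in each library. The ligand sum was 38.6 and 39.5 in Ctrl and 19.3 and 15.5 in PRMT3-KD libraries, mostly JAG1, while the receptor sum ranged from 25.5 to 31.9 with no gap between the groups.

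The receptor genes, whose products receive the Jagged and Delta signals, did not pass the threshold in either direction. NOTCH2 (ENSG00000134250, chromosome 1 from 120454176 to 120643366) made up 76.7% to 79% of the receptor level per length, and NOTCH1 (ENSG00000148400, chromosome 9 from 139388885 to 139440500) 20.4% to 22.4%. NOTCH2 had 394 and 399.9 CPM in Ctrl and 332 and 410.2 CPM in PRMT3-KD libraries. The Ctrl values lay between those of the PRMT3-KD libraries. The fitted log2 fold change was -0.10 (95% interval -0.42 to 0.23, adjusted p = 0.606, edgeR). NOTCH2NL, a human paralog of the 5′ part of NOTCH2 with which it can share reads, had a log2 fold change of 0.19 (adjusted p = 0.258, edgeR). The counts assigned to NOTCH2NL, 16.5 and 16.6 CPM in Ctrl, were few beside those of NOTCH2. How shared reads were counted is not given in the sources used here, so these values do not bound them. The annotation also holds 1 pseudogene of NOTCH2.

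NOTCH1 had 76.1 and 79.3 CPM in Ctrl and 68.5 and 89.6 CPM in PRMT3-KD libraries. Here too the PRMT3-KD libraries lay on either side of the Ctrl libraries, and the log2 fold change was 0.03 (95% interval -0.37 to 0.42, adjusted p = 0.919, edgeR). NOTCH1 and NOTCH2 were both lower in PRMT3-KD library 1 than in library 2, by 0.39 and 0.30 on the log2 scale. With 2 libraries a group, these intervals leave room for changes up to their bounds. A change under 1.5-fold could not pass the threshold in any case.

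NOTCH3 (ENSG00000074181, chromosome 19 from 15269849 to 15311806), a receptor best known from vascular smooth muscle, was hardly expressed, with 24 and 26 counts in Ctrl against 25 and 59 in PRMT3-KD cells. Its level per length was 0.309% to 0.691% of the receptor sum. On the CPM scale the libraries had 0.866, 0.945, 0.984 and 2.08, so only PRMT3-KD library 2 stood above the rest. Its exact Poisson interval of 1.58 to 2.68 CPM did not reach that of PRMT3-KD library 1, 0.637 to 1.45 CPM. The log2 fold change of 0.76 (SE 0.444, adjusted p = 0.283, edgeR) did not pass. It was 1.20 without PRMT3-KD library 1 and 0.12 without library 2.

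Neither nuclear member passed. RBPJ (ENSG00000168214, chromosome 4 from 26165077 to 26436753), the DNA-binding partner of the Notch intracellular domain, had 76.5 and 75.5 CPM in Ctrl and 71.5 and 68.6 CPM in PRMT3-KD libraries. The groups did not overlap, but the gap was small, with a log2 fold change of -0.12 (95% interval -0.31 to 0.08, adjusted p = 0.304, edgeR). The annotation holds 4 RBPJ pseudogenes with which reads may be shared. MAML1 (ENSG00000161021, chromosome 5 from 179159823 to 179204284), the coactivator that completes the complex, had 76.6 and 76.4 CPM in Ctrl and 70.4 and 83.8 CPM in PRMT3-KD libraries. The log2 fold change was 0.01 (95% interval -0.28 to 0.30, adjusted p = 0.955, edgeR), which leaves room for a change of that size in either direction.

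HES1 (ENSG00000114315, chromosome 3 from 193853937 to 193856521), a basic helix-loop-helix repressor that holds back neuronal differentiation, had the smallest adjusted p of the members. It had 874 and 892 counts in Ctrl against 441 and 481 in PRMT3-KD cells, or 31.5 and 32.4 CPM against 17.4 and 16.9 CPM. The values within each group were close together and the groups were far apart. Mean HES1 was 32.0 ± 0.626 CPM in Ctrl against 17.1 ± 0.301 CPM after knockdown (SD, n = 2 libraries), which is a log2 fold change of -0.90 (SE 0.0888, 95% interval -1.14 to -0.66, adjusted p = 0.0172, edgeR). The PRMT3-KD libraries differed by 0.03 on the log2 scale, and 8.58% of all genes tested had a smaller gap. As with JAG1, the call was lost without Ctrl replicate 1 or 2, at -0.92 and -0.88. Without PRMT3-KD library 1 or 2 HES1 was at -0.92 and -0.89, in fits whose spread came from the Ctrl libraries alone.

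Over the 4 libraries, the genes whose pattern was nearest to that of HES1 were TGFBI, ADAMTS15 and LTA4H. The measure was the Euclidean distance between log2 values centred on the Ctrl mean, among 9458 genes at a mean level of 10 CPM or more, and the distances were 0.0314, 0.0397 and 0.05. Their log2 fold changes were -0.87, -0.89 and -0.92. With 4 libraries such likeness is a description of a similar fall and carries no test.

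HEY1 (ENSG00000164683, chromosome 8 from 80674606 to 80680092), a HES-related repressor, moved in opposite directions in the PRMT3-KD libraries. It had 11.7 and 11.1 CPM in Ctrl, 18.2 CPM in PRMT3-KD library 1 and 8.73 CPM in library 2. Library 1 lay above and library 2 below both Ctrl libraries, and 96.7% of all genes tested had a smaller gap between the PRMT3-KD libraries. The log2 fold change was 0.24 (SE 0.368, 95% interval -0.74 to 1.22, adjusted p = 0.677, edgeR). It was -0.38 without PRMT3-KD library 1 and 0.67 without library 2, so no direction can be given for HEY1.

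NRARP (ENSG00000198435, chromosome 9 from 140194083 to 140196723), a small ankyrin repeat protein that is a Notch target and restrains the pathway in turn, was scarce, with 28 and 22 counts in Ctrl against 39 and 45 in PRMT3-KD cells. This corresponded to 1.01 and 0.80 CPM in Ctrl and 1.53 and 1.58 CPM in PRMT3-KD libraries, both of which were above both Ctrl values. The counting intervals overlapped, reaching 1.46 CPM in Ctrl library 1 and starting at 1.09 CPM in PRMT3-KD library 1. The log2 fold change was 0.78 (SE 0.27, unadjusted p = 0.0391, adjusted p = 0.114, edgeR) and did not pass. Without PRMT3-KD library 1 it was 0.81, and without library 2 it was 0.75. The exons of NRARP overlap ENSG00000288234 on the other strand.

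The 3 targets thus gave different readings in the same libraries: HES1 fell, NRARP had a positive log2 fold change that did not pass, and HEY1 had no common direction. Differences between the targets were not tested.

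**Figure D3:**
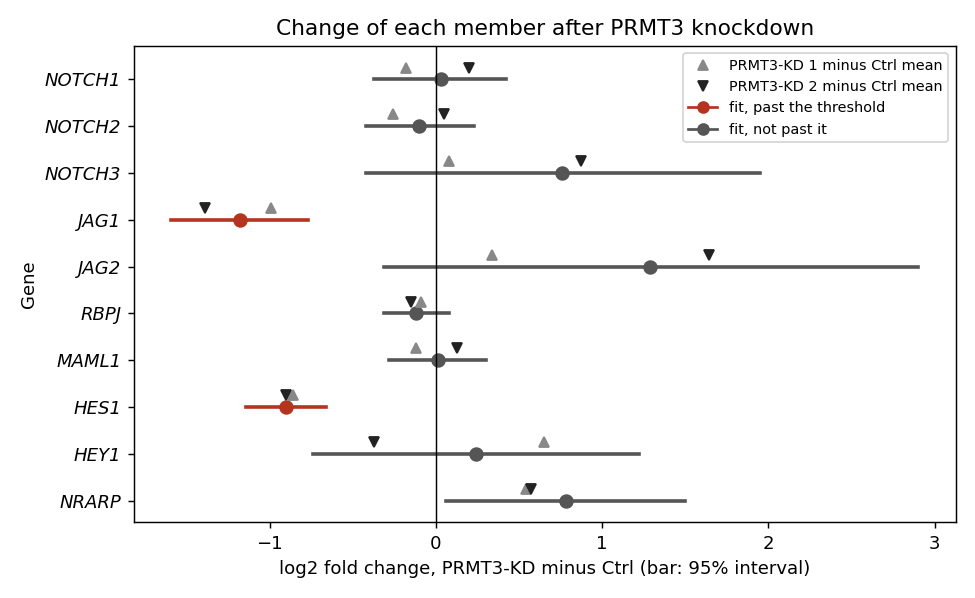
Fitted log2 fold change (PRMT3-KD minus Ctrl) of each member with its 95% interval (circles and bars, red where past the threshold), and above each the change of PRMT3-KD library 1 (upward triangle) and library 2 (downward triangle) from the Ctrl mean. JAG1 at -1.18 and HES1 at -0.90 are past the threshold, the intervals of the other members except NRARP cross 0, and the triangles of HEY1 lie on opposite sides of 0.

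The rest of the pathway was read from a list of 78 other genes, of which 72 were in the table and 67 were tested. Of the 67, 12 passed the threshold (17.9%, beside 10.9% of all genes), with 4 higher and 8 lower, and the median log2 fold change was -0.06. The ligands had the largest single fall in the list among genes that passed. DLL1, a Delta-like ligand, had 431 and 426 counts in Ctrl against 135 and 117 in PRMT3-KD cells, a log2 fold change of -1.72 (SE 0.17, adjusted p = 0.0172, edgeR). CNTN1, a contactin reported as a noncanonical ligand, passed as lower too, with a log2 fold change of -0.84 (adjusted p = 0.0178, edgeR). None of the 5 ligands tested passed as higher, and DNER, the ligand with the most counts, had 1371 and 1472 counts in Ctrl against 1940 and 1057 in PRMT3-KD cells, which again lay on either side of Ctrl. DLL4 had 1 to 7 counts in a library and was not tested. NOTCH4, the remaining receptor, had 27 and 30 counts in Ctrl against 13 and 19 in PRMT3-KD cells (adjusted p = 0.144, edgeR).

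The genes of receptor cleavage changed in both directions. Of 9 tested, FURIN and APH1B passed as higher and NCSTN as lower. FURIN, a convertase that cleaves the receptor on its way to the cell surface, had 6744 and 6837 counts in Ctrl against 13110 and 11298 in PRMT3-KD cells, a log2 fold change of 0.89 (adjusted p = 0.0284, edgeR). APH1B and NCSTN both encode subunits of gamma-secretase, and their log2 fold changes were 0.95 and -0.78 (adjusted p = 0.0297 and 0.0261, edgeR). ADAM10, which makes the first cut after ligand binding, had a log2 fold change of 0.56 (adjusted p = 0.0201, edgeR), under 1.5-fold. Of 5 glycosylation genes, EOGT, an O-GlcNAc transferase of extracellular domains, passed as higher (0.60, adjusted p = 0.0231, edgeR), though on library totals only it was at 0.57 (adjusted p = 0.0369, edgeR), under 1.5-fold. By contrast, POFUT1, the O-fucosyltransferase of the receptors and the most counted of the 5, was at 0.07 (adjusted p = 0.607, edgeR).

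Among 12 genes of ubiquitination and trafficking, NUMBL, related to the Notch antagonist NUMB, passed as lower (-0.73, adjusted p = 0.0298, edgeR). Of the 12, 8 had log2 fold changes above 0 and 4 below, with NEURL1B lowest at -1.14 (adjusted p = 0.0508, edgeR). In edgeR with the replicate block, on library totals or with 10 counts or more in every library, 2 of the 12 passed as lower. So did 2 in DESeq2 and in limma-voom. Over all genes, 801, 754, 804, 992 and 902 passed as lower in these fits. ITCH, a ubiquitin ligase of the receptors, was at 0.34 (adjusted p = 0.0468, edgeR), under 1.5-fold. The histone acetyltransferase genes KAT2A and KAT2B, which are close relatives, passed in opposite directions among 7 coactivator genes, at -0.79 and 0.83 (adjusted p = 0.0214 and 0.0401, edgeR). EP300 was at 0.15 (adjusted p = 0.21, edgeR). Of 15 corepressor genes, CIR1, a corepressor that binds RBPJ, passed as lower (-0.72, adjusted p = 0.0318, edgeR).

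HES4, a relative of HES1, passed as lower among the 5 other HES and HEY genes tested. It had 226 and 239 counts in Ctrl against 84 and 115 in PRMT3-KD cells, a log2 fold change of -1.19 (SE 0.177, adjusted p = 0.0248, edgeR). HES6, the most counted of the 5, was at -0.17 (adjusted p = 0.465, edgeR). Per length, HES1 was the most abundant of the 7 HES and HEY genes in the table, with 50.8% and 50% of their sum in Ctrl and 43.1% and 43.2% in PRMT3-KD libraries. Of 8 other genes reported as targets in various tissues, 7 had log2 fold changes below 0, beside 6523 of all 13172 genes tested. The median of the 8 was -0.56. In the main edgeR fit 1 passed as lower, beside 5.97% of all genes. In edgeR on library totals, with either other filter or with the replicate block, 2 passed as lower. Over all genes, 754 passed as lower on library totals, 770 and 804 with the other filters and 801 with the block. In DESeq2 and in limma-voom 3 of the 8 passed as lower, beside 992 and 902 of all genes. The gene that passed in the main fit was SOX9, a transcription factor of glial progenitors (-0.65, adjusted p = 0.0215, edgeR). TNC, the most counted, was at -0.08 (adjusted p = 0.828, edgeR).

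**Figure D4:**
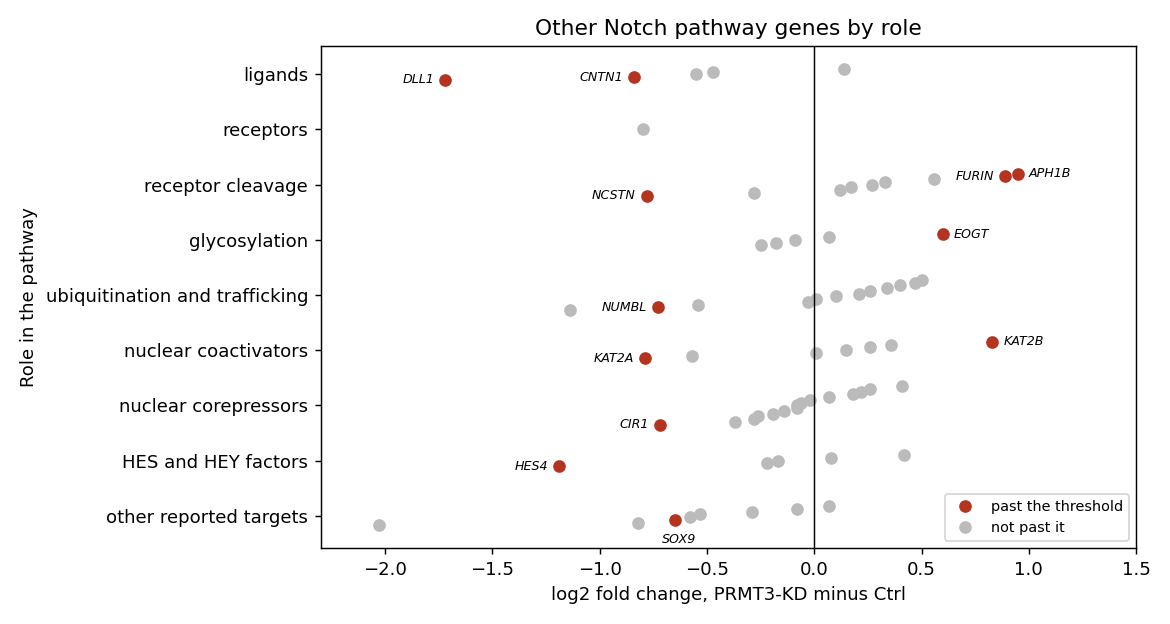
Fitted log2 fold change (PRMT3-KD minus Ctrl) of the 67 other Notch pathway genes tested, 1 point a gene, in rows by role, with genes past the threshold in red and named. DLL1 at -1.72 and HES4 at -1.19 lie farthest to the left of the named genes, and APH1B at 0.95 and FURIN at 0.89 farthest to the right.

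Marker genes were read beside these results, since in bulk RNA fewer cells of a type and less RNA per cell cannot be told apart. Every library is labelled as the cultured U251 line alone. The lists are therefore named for cell types of tissue, not for cells known to be present. The glioma and astrocyte markers were present, with 149599 and 148237 counts of VIM in Ctrl, while AQP4 had 0 counts in 3 libraries and OLIG2 was not analysed here. GFAP, the classical astrocyte filament, had 363 and 392 counts in Ctrl and 32 and 153 in PRMT3-KD cells (log2 fold change -2.03, adjusted p = 0.0958, edgeR). Among the markers of this list that were tested, 6 had log2 fold changes below 0 and 3 above. The 3 were ALDH1L1 at 1.29 (5 to 16 counts in a library, adjusted p = 0.0931, edgeR), S100B at 0.19 and CD44 at 0.00. Of the 9 of these markers tested, 1 (SOX9) passed as lower in edgeR and 2 in the fit blocked by replicate. In DESeq2 and in limma-voom, 3 each passed as lower. Over all genes, 786, 801, 992 and 902 passed as lower in the same fits. Of the listed markers, 4 are also on the pathway list. The summed level of the list, mostly from VIM and CD44, was 8606 and 8587 CPM in Ctrl and 7477 and 7924 CPM in PRMT3-KD libraries. Of the 4 neuronal markers tested, 0 passed in edgeR (2 at an unadjusted p under 0.05), 0 in DESeq2 and 0 in limma-voom, and STMN2 had 0 or 1 counts. Their sums were 24.2 to 24.5 CPM in Ctrl and 26.1 to 29.4 CPM with the knockdown. The 5 oligodendrocyte markers summed to under 1 CPM in every library, and the leukocyte list to between 24.2 and 30 CPM, nearly all from CD68, with PTPRC at 2 to 7 counts.

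Some vascular markers, namely ACTA2, PDGFRB and CDH5, were highest in PRMT3-KD library 2, as were NOTCH3 and JAG2, while RGS5 and KDR were lowest there. The 5 pericyte and smooth muscle markers summed to 42.6 and 43.6 CPM in Ctrl and to 71.6 and 204 CPM in PRMT3-KD libraries 1 and 2, mostly from ACTA2, with MYH11 at 4 to 9 counts and DES at 0 to 18. PDGFRB had 15.9 and 15.6 CPM in Ctrl and 11.9 and 35.9 CPM in PRMT3-KD libraries 1 and 2. RGS5 was lowest in PRMT3-KD library 2, at 3.06 CPM against 5.67 in library 1 and 3.93 and 3.45 in Ctrl. ACTA2 had 623 and 664 counts in Ctrl and 1364 and 4663 in PRMT3-KD cells, a log2 fold change of 2.22 (adjusted p = 0.0624, edgeR). Exons of ACTA2 overlap ENSG00000286116 on the same strand, and FAS and ACTA2-AS1 on the other strand. Of the 3 markers of that list that were tested, 0 passed in the main edgeR fit (1 at an unadjusted p under 0.05). In the edgeR fit blocked by replicate, in DESeq2 and in limma-voom, 1 passed as higher, beside 663, 842 and 788 of all genes. The 3 endothelial markers in the table summed to 27.5 and 29.6 CPM in Ctrl and to 19.6 and 37.9 CPM in PRMT3-KD libraries, with CDH5 at 129 and 722 counts in the latter. VWF had 2.35 and 2.07 CPM in Ctrl and 1.18 and 2.46 CPM in PRMT3-KD libraries, and KDR was lowest in library 2, at 9.99 CPM. KDR passed as lower (-0.86, adjusted p = 0.0428, edgeR), but not on library totals only (-0.88, adjusted p = 0.0596, edgeR). Whether the levels of these markers in the U251 libraries are linked to those of NOTCH3 and JAG2 was not tested.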

How the data were processed

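RNA-seq was done on 2 Ctrl and 2 PRMT3-KD U251 libraries. The authors deposited whole-number counts per gene without normalization; the methods name TopHat with default settings, hg19 and Cufflinks for the counts and DESeq2 for the tests that followed, and the submitters' processing notes also name CASAVA. Versions, annotation, strand setting and any filter on genes are not given in the sources used here. After removal of 1 duplicate row, 15575 genes remained, of which 99.9% of identifiers matched GENCODE 44 on GRCh37, the build of hg19, used for coordinates, exon lengths and 3′ UTRs (canonical transcript, at least 50 bases).

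The test was edgeR 4.0.16 under R 4.3.3 (filterByExpr with a minimum count of 10 and total of 15, TMM scaling, glmQLFit, glmQLFTest), with Benjamini-Hochberg adjustment across 13172 genes. Each SE was computed from F and the log2 fold change. Total counts of 24804250 to 29756313 limit the precision of scarce genes. Alternatives were DESeq2 1.42.0, its size factors in edgeR, library totals, 2 other filters, the replicate number as a block, limma 3.58.1 voom with group weights, and each library left out. The code was tested on simulated data with the same spread in both groups. That test does not cover the unequal spread of the Ctrl and PRMT3-KD libraries. Members and lists were chosen with earlier results of these data known. Named genes are all members, PRMT3, listed pathway genes past the threshold or with the most counts in their role, and the 3 genes nearest in pattern to the member with the smallest adjusted p. ADAM10, DLL4, NEURL1B, NOTCH2NL and the markers named were chosen after their values were seen. The result of 1 gene that the rule for named genes picks is not reported here.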

Additional observations from a re-analysis of the deposited data

How the results depend on the processing

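JAG1 and HES1 were the 2 members past the threshold under every other test, scaling and filter and with the replicate number as a block, with log2 fold changes from -1.20 to -1.17 and from -0.93 to -0.90. With the block, 2 members, 14 other pathway genes and 1464 of all genes passed (2, 12 and 1441 without it). The labels do not say that a replicate number marks a shared batch, and the deviations of same-numbered libraries had a correlation of 0.0222 across genes. On library totals only, NOTCH1 turned to -0.01 and MAML1 to -0.02, both within their errors. Leaving out each library in turn, with the lone library assumed to vary like the other group, gave 0 to 5 members, 0 to 21 other pathway genes and 0 to 3066 of all genes past the threshold. The 0 came from leaving out either Ctrl library, where the spread rests on the PRMT3-KD libraries alone (1842 and 1868 of all genes at an unadjusted p under 0.05, edgeR). The log2 fold change then ranged from -0.19 to 0.21 for NOTCH1, -0.26 to 0.05 for NOTCH2, -0.12 to 0.13 for MAML1 and -0.38 to 0.67 for HEY1, each turning sign. NOTCH3 ranged from 0.12 to 1.20, JAG2 from 0.37 to 1.84, JAG1 from -1.39 to -0.99 and HES1 from -0.92 to -0.88. Depth limits NOTCH3, JAG2 and NRARP, which had 22 to 183 counts in a library. For NOTCH3 and JAG2 the counting intervals of the PRMT3-KD libraries did not overlap, so the gap between those libraries limits them as well.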
